A study of Mus musculus with 2 samples.

Results

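The genes described here encode glucose uptake, the enzymes of glycolysis, lactate export, the hypoxia-inducible factors (HIFs) with their regulators, and a set of HIF target genes. They were chosen by symbol, 22 for glycolysis and 15 for the hypoxia response, and all 37 had a row among the 17024 genes of the deposited table. RNA had been sequenced from cells sorted out of the lamina propria of the small intestine; all mice were C57BL/6 and 6 to 8 weeks old. T helper 17 (Th17) cells were T cells that expressed GFP from an IL17A_IRES_GFP knock-in allele, which marks cells transcribing the cytokine gene Il17a. Group 3 innate lymphoid cells (ILC3s), which lack an antigen receptor, were sorted as GFP-positive ILC3s from IL23R_GFP knock-in mice, in which the IL-23 receptor locus drives the reporter. Cell type, mouse line and reporter therefore differ together, the labels name no further treatment, and the sources used here give neither zygosity nor the number of animals pooled. Each group held 1 library, so no difference has a replicate check and no test was made.

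The libraries held 17555055 reads over listed genes for Th17 and 22509405 for ILC3. All 10 T cell markers examined had a large difference towards Th17 (summed level 93622 normalized counts against 5921 in ILC3), and all 10 ILC3 markers were higher in the ILC3 library, 4 of them by a large difference. Differences were called large from 4-fold upwards, on log2 of normalized count plus 1, where the higher library reached 100 normalized counts. All 37 genes reached 100 in at least 1 library. Intervals in parentheses are exact 95% intervals of the ratio and cover counting error only; they compare these libraries and not the cell types. In sorted bulk RNA, fewer cells that express a gene and less RNA per cell cannot be told apart.

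Glycolysis splits glucose into pyruvate in the cytosol, and lactate dehydrogenase with monocarboxylate transporters disposes of the product when it does not enter mitochondria. Activated and dividing T cells are known for a high glycolytic rate. HIF-1α and HIF-2α are made continuously, are hydroxylated by oxygen-dependent prolyl hydroxylases and are degraded through the VHL ubiquitin ligase. When oxygen is low they pair with ARNT and bind the core motif ACGTG or GCGTG near their target genes, many of which encode glycolytic proteins. In T cells, HIF-1α also acts at normal oxygen under antigen receptor and cytokine signals.

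The Th17 library was higher for most of the glycolytic chain, for both lactate transporter genes and for Hif1a, whereas the ILC3 library was higher for Hk2, Pfkfb3, Epas1 and Hilpda. Of the 37 genes, 10 (27.0%) had a large difference towards Th17, where 6.4% of the 10431 genes that reached 100 did so. A large difference towards ILC3 was found for 3 (8.11%), against 8.39% of all genes, so the share in that direction is near that of any gene. With a 2-fold limit in place of 4-fold, 19 genes (51.4%) were higher in Th17 and 5 (13.5%) in ILC3, against 16.2% and 16% of all genes. The remaining 13 differed by less than 2-fold. With the libraries centred on 155 genes of constitutive families, which were 1.37-fold higher in Th17, 7 genes kept a large difference towards Th17, without Tpi1, Bnip3 and Ddit4, and 3 towards ILC3. At 2-fold the numbers were then 15 and 6, without Aldoa, Aldoc, Pkm and Higd1a in Th17 and with Pdk1 in ILC3. By the same centring, large differences over all genes numbered 469 towards Th17 and 1185 towards ILC3, in place of 668 and 875. The like numbers of all genes at 2-fold by centring are not given here. Of the 30 genes that reached 1000 normalized counts, a minimum added after seeing the data, 8 had a large difference towards Th17 and 2 towards ILC3, against 4.68% and 5.98% of all genes at that level. At 2-fold these numbers were 15 and 4, against 14.1% and 12.3%. The median log2(Th17/ILC3) was 1.27 over the 22 glycolysis genes and 0.43 over the 15 hypoxia genes, beside 0.02 over the 13719 genes with a mean of at least 10 normalized counts. Together the 37 genes held 1.01% of the Th17 reads (Clopper-Pearson 95% interval 1.01 to 1.02) and 0.631% of the ILC3 reads (0.628 to 0.634).

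**Figure D1:**
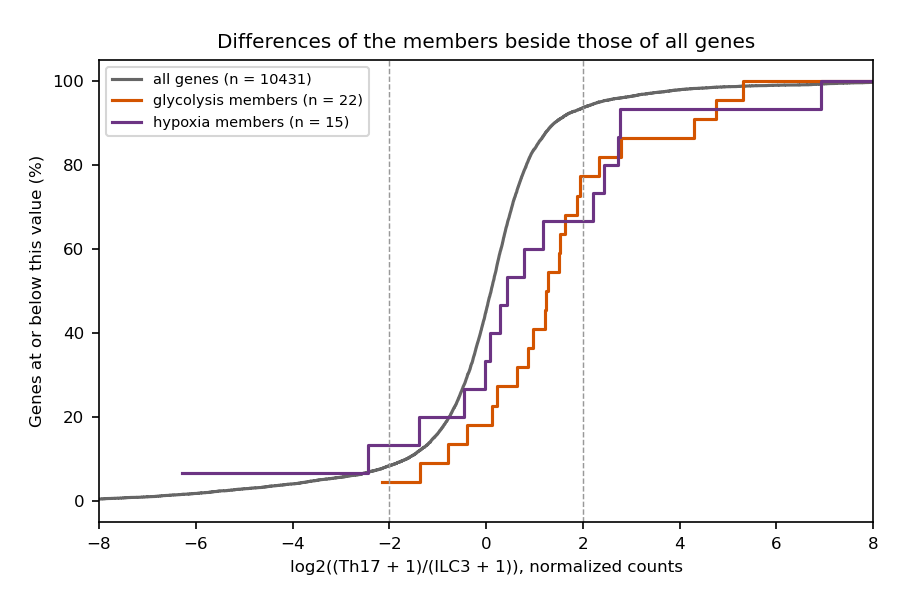
Cumulative share of genes (y axis, %) at or below each log2((Th17 + 1)/(ILC3 + 1)) of normalized counts (x axis) for all 10431 genes that reached 100 normalized counts, the 22 glycolysis genes and the 15 hypoxia genes, with dashed lines at 4-fold. The glycolysis line lies to the right of the line of all genes over most of its course, and the hypoxia line crosses it.

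Promoter sequences are shown for 6 genes picked to show both directions: both lactate transporters and Pgk1, far higher in Th17, the opposed pair Pfkfb4 and Pfkfb3, and Hilpda, higher in ILC3. They are not the 6 with the largest differences, and Ankrd37 and Adm differed more than any of them on the log2 scale. Each runs from 250 bases before to 50 bases after a transcription start, 5′ to 3′ on the gene's strand, as RefSeq gives it for assembly GRCm38.p6. Capitals mark ACGTG and GCGTG, the HIF core motif, on either strand, so that CACGT and CACGC are the same motif on the other strand. Adjoining marks can merge, as in CACGTG, which counts once on each strand and is also the E-box bound by MYC.
The first 3 windows are those of Slc16a1 (chr3:104638414-104638713, plus strand), Slc16a3 (chr11:120948817-120949116, plus strand) and Pgk1 (chrX:106186850-106187149, plus strand).
Slc16a1: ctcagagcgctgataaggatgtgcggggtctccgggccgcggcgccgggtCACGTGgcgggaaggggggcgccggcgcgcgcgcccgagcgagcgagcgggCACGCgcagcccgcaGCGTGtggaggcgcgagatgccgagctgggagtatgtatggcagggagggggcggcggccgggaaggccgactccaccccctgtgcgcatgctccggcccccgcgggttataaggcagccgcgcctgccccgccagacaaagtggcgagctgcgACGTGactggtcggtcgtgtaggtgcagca
Slc16a3: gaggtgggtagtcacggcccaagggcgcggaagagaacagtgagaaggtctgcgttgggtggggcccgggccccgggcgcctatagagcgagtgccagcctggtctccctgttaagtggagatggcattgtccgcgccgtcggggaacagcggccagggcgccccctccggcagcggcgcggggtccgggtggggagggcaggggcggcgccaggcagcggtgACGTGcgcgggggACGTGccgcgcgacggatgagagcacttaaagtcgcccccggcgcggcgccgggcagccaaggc
Pgk1: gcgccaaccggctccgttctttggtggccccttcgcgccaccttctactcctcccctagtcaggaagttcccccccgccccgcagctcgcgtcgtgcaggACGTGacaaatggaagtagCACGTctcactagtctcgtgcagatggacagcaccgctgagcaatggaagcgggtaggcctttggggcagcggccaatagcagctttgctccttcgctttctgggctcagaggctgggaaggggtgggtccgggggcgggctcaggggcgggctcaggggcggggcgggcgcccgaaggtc
The other windows are those of Pfkfb4 (chr9:108991652-108991951, plus strand), Pfkfb3 (chr2:11553880-11554179, minus strand) and Hilpda (chr6:29272238-29272537, plus strand); the last 2 genes have 2 listed starts each, of which the first is shown.
Pfkfb4: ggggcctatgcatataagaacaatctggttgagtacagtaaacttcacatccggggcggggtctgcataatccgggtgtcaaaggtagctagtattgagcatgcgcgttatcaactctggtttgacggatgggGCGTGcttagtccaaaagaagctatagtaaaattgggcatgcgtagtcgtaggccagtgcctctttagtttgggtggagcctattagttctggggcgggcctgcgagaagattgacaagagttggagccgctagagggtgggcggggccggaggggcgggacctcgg
Pfkfb3: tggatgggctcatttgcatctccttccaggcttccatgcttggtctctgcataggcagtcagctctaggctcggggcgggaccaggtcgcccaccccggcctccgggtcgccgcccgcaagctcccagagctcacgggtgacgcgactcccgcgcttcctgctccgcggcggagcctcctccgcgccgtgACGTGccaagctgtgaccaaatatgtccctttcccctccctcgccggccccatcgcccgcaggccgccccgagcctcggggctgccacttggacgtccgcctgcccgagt
Hilpda: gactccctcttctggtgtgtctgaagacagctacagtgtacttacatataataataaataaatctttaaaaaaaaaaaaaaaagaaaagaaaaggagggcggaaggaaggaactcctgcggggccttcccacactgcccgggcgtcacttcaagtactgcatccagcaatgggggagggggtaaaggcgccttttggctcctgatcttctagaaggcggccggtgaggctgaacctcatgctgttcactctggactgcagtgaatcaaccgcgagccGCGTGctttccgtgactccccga

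The motif was present in genes of both directions. It occurred 5 times in the Slc16a1 window, 2 times in those of Slc16a3 and Pgk1, and 1 time in those of Pfkfb4, Pfkfb3 and Hilpda. At their second listed start, not shown, Pfkfb3 held it 4 times, with CACGTG among them, and Hilpda 3 times. A promoter was matched for 33 of the 37 genes, all but Slc2a3, Epas1, Ndrg1 and Bnip3l, and at the first listed start 27 of them (81.8%) held the motif at least once. The same was so for 43.8% of all 32851 promoters of that length and for 64.6% of those of 7926 genes that reached 100 normalized counts. It was found in 15 of 18 promoters of genes at least 2-fold higher in Th17, in 4 of 4 of those higher in ILC3 and in 8 of 11 of the others. Tpi1, Pkm, Aldoa, Gpi1, Vhl and Hk1 did not hold these letters in that window. At another listed start Hk1 held them 5 times, Pkm 2 times and Aldoa 1 time. CACGTG itself was in 5 of the 33 at the first listed start, in 7.15% of all promoters and in 10.4% of those of genes that reached 100 normalized counts. A match describes the sequence and is not a measured binding site.

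**Figure D2:**
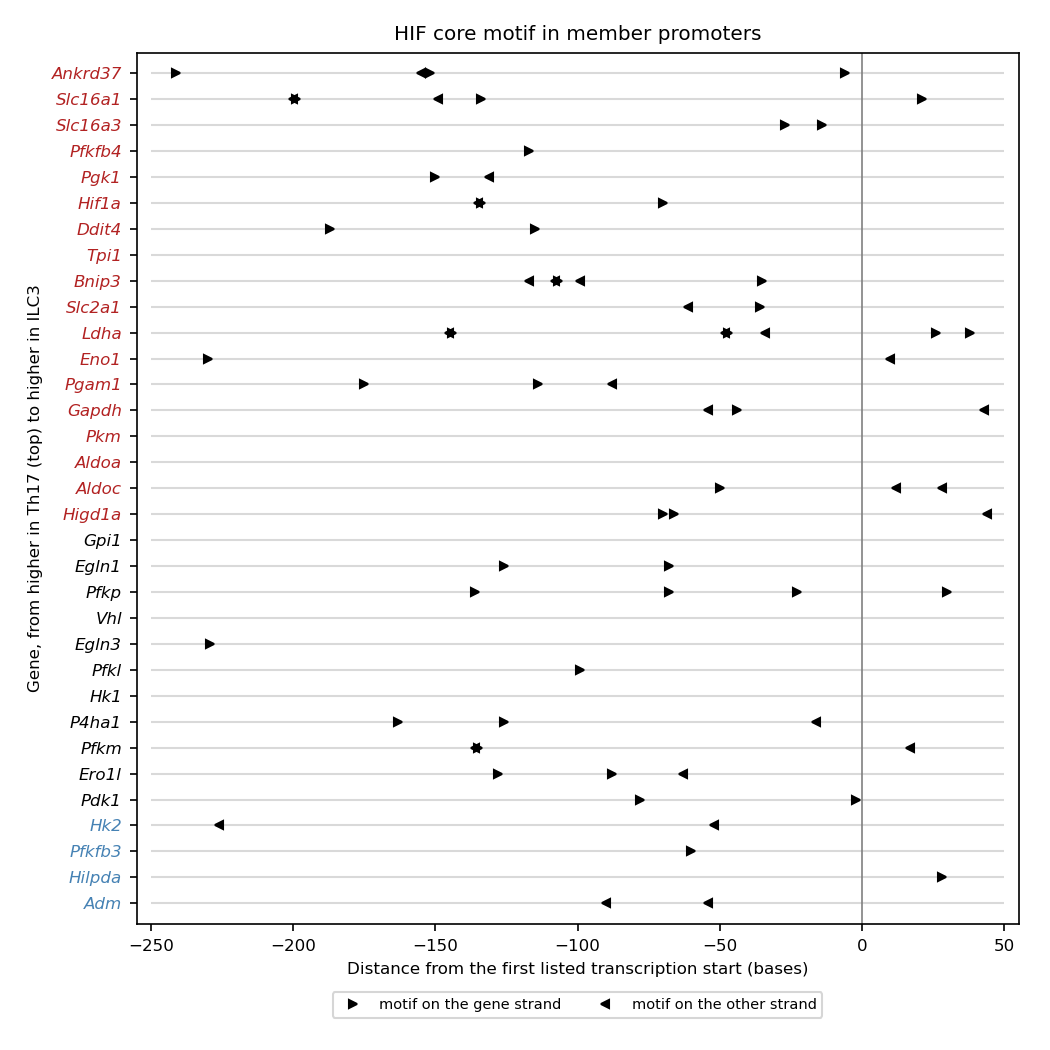
Position of each ACGTG or GCGTG motif (arrowheads, pointing along the strand that carries it) by distance from the first listed transcription start (x axis, bases) in the 33 promoters, ordered from higher in Th17 to higher in ILC3; red names were at least 2-fold higher in Th17, blue names at least 2-fold higher in ILC3. Red, black and blue names all include genes with the motif.

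Both glucose transporter genes were higher in Th17. Slc2a1, encoding the widely expressed transporter GLUT1, stood at 2802 normalized counts in Th17 against 733 in ILC3, a 3.82-fold difference (3.53 to 4.14), just under the large limit. Slc2a3, encoding the high-affinity transporter GLUT3, stood at 2610.5 against 1427 (1.83-fold, 1.72 to 1.95). Because their differences were unequal, the balance between them was unlike in the libraries. Per kilobase of exon, Slc2a1 made up 56.6% of the level of the pair in Th17 and 38.4% in ILC3.

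The first steps of glycolysis, from hexokinase to aldolase, were mixed. Hk2, encoding the inducible, mitochondria-bound hexokinase, stood at 8744 normalized counts in Th17 against 22357 in ILC3 (2.56-fold towards ILC3, 2.49 to 2.62). Hk1, the constitutive hexokinase gene, stood at 4519 against 4128 (1.09-fold higher in Th17, 1.05 to 1.14), and its direction turned (log2 -0.32) when the libraries were centred on constitutive gene families. Hk2 was thus the main hexokinase of the pair in both libraries, at 62.6% of their level per kilobase in Th17 and 82.4% in ILC3. Gpi1, encoding glucose-6-phosphate isomerase, stood at 9715 in Th17 against 4966 in ILC3 (1.96-fold, 1.89 to 2.02), just short of 2-fold. The phosphofructokinase genes encode the rate-controlling step. Pfkp, the platelet-type subunit, stood at 8513 against 5471 (1.56-fold higher in Th17). Pfkl, the liver type, stood at 2179 against 1873 (1.16-fold), which likewise turned to log2 -0.24 by centring. Pfkm, the muscle type, stood at 269 against 353 (1.31-fold towards ILC3, 1.11 to 1.55). Pfkp was the leading subunit in each library, with 74.6% of the 3 genes' level per kilobase in Th17 and 67.3% in ILC3. Aldoa, encoding the main aldolase, stood at 16369.6 in Th17 against 6928 in ILC3 (2.36-fold, 2.30 to 2.43). Aldoc, a minor aldolase gene, stood at 206 against 87.6 (2.35-fold, 1.83 to 3.03), so the aldolase genes differed by like amounts. Of these 8 genes 2 were at least 2-fold higher in Th17, 1 in ILC3, and none had a large difference. By centring neither Aldoa (log2 0.79) nor Aldoc (log2 0.77) reached 2-fold.

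The last steps, from triose phosphate to pyruvate, were higher in Th17 without exception, all 6 genes by at least 2-fold and 2 of them by a large difference. By centring they stayed on the Th17 side, with Pkm under 2-fold at log2 0.84 and Tpi1 under the large limit at log2 1.88. Pgk1, encoding phosphoglycerate kinase, which makes the first ATP of the pathway, stood at 12232 normalized counts in Th17 against 1760.4 in ILC3 (6.95-fold, 6.63 to 7.29). Tpi1, which interconverts the triose phosphates, stood at 7522 against 1487 (5.06-fold, 4.80 to 5.34). Their neighbours in the pathway differed less. Eno1, encoding enolase, stood at 9321 against 2991 (3.12-fold). Pgam1, encoding phosphoglycerate mutase, stood at 6240.4 against 2157 (2.89-fold). Gapdh, the dehydrogenase of the pathway, stood at 10755 against 3798 (2.83-fold). Gapdh is often used as a reference gene between samples, and its interval here was 2.73 to 2.94. Pkm, encoding pyruvate kinase, stood at 32371 against 13231 (2.45-fold) and had the highest level per kilobase of the 37 genes in both libraries, 12455 normalized counts per kilobase in Th17 and 5091 in ILC3. The median log2 ratio was 1.59 over these 6 genes and 0.43 over the 8 genes of the first steps.

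Genes for making and exporting lactate had the widest difference among the steps. Ldha, whose product turns pyruvate into lactate, stood at 19830.2 normalized counts in Th17 against 5347 in ILC3 (3.71-fold, 3.60 to 3.82). Slc16a1, encoding the lactate transporter MCT1, stood at 1837 in Th17 against 45.1 in ILC3 (40.8-fold, 31.0 to 54.6). Slc16a3, encoding MCT4, the low-affinity exporter of glycolytic cells, stood at 2489 against 91.0 (27.4-fold, 22.5 to 33.5). Of the 10431 genes that reached 100, 127 had a higher log2 ratio than Slc16a1 and 153 a higher one than Slc16a3. In the authors' deposited table these were the only 2 of the 37 genes with an adjusted p under 0.05, at 0.00527 for Slc16a1 and 0.0087 for Slc16a3, where 306 of all 17024 genes (1.8%) had one. The other 35 had 0.184 or more in the authors' deposited table, which rests on the same 2 libraries.

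The ILC3 library had few genes at very low read numbers, with 174 genes at a single read and 65 at 3 reads, against 1177 and 438 in Th17. From 6 to 14 reads the number of ILC3 genes per read number stayed between 91 and 117. As a harsher setting, ILC3 reads were taken in groups of 7, an arbitrary size chosen after the data were seen, and the interval was then 19.5 to 89.5 for Slc16a1 and 16.9 to 49.9 for Slc16a3. For Pfkfb4 and Ankrd37, described below, it became wider still.

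Of the 3 genes for kinases that set the pace of glycolysis and the fate of pyruvate, Pfkfb3 and Pdk1 were higher in ILC3 and Pfkfb4 in Th17. Pfkfb3 and Pfkfb4 encode enzymes that make and break down fructose 2,6-bisphosphate, the activator of phosphofructokinase. Pfkfb3 stood at 858 normalized counts in Th17 against 3819 in ILC3 (4.45-fold towards ILC3, 4.11 to 4.82). Pfkfb4 stood at 169 against 7.65, from 144 and 9 reads (22.1-fold higher in Th17, 11.3 to 49.4; lower limit 5.02 with ILC3 reads in groups of 7). Reads of Pfkfb3 per read of Pfkfb4 numbered 5.07 in Th17 and 499 in ILC3, a 98.4-fold shift (95% interval from read numbers 50.0 to 194). The ILC3 ratio rests on those 9 reads of Pfkfb4, and its interval was not calculated with ILC3 reads in groups of 7. Pdk1, whose product inhibits pyruvate dehydrogenase, stood at 942 against 1633 (1.73-fold towards ILC3, 1.60 to 1.88). Its relatives Pdk2 and Pdk3, the latter named after its values were seen, went opposite ways, Pdk2 with 40.0 against 216 and Pdk3 with 646 against 179 (3.60-fold higher in Th17, 3.06 to 4.24).

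**Figure D3:**
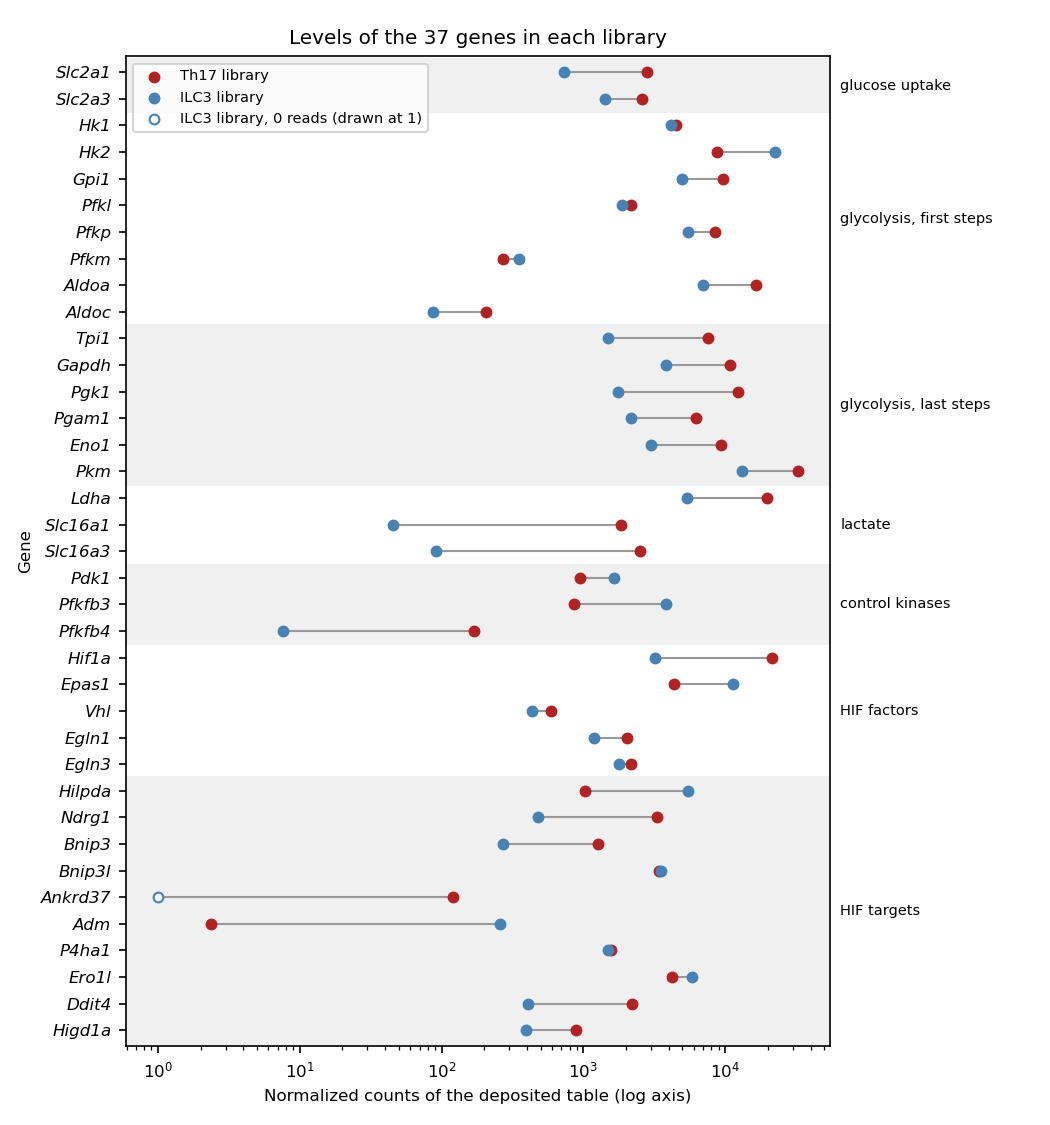
Normalized counts of the 37 genes (x axis, log scale) in the Th17 library (red) and the ILC3 library (blue), grouped by role, with 1 library a group; Ankrd37, at 0 reads in ILC3, is drawn as an open circle at 1. Red lies to the right of blue in all genes of the last steps of glycolysis and of lactate handling, and to the left for Hk2, Pfkfb3, Epas1, Hilpda and Adm.

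The HIF subunit genes were opposed. Hif1a, encoding HIF-1α, stood at 21349 normalized counts in Th17 against 3218 in ILC3 (6.63-fold, 6.41 to 6.87). Epas1, encoding HIF-2α, stood at 4341 against 11414 (2.63-fold towards ILC3, 2.53 to 2.73). Per kilobase of exon Hif1a was 83.3% of the pair's level in Th17 and 22.2% in ILC3, so the leading subunit was not the same gene in the libraries. The read ratio of Hif1a to Epas1 was 4.92 in Th17 and 0.282 in ILC3, 17.4-fold apart (95% interval 16.6 to 18.3), and this ratio does not depend on how the libraries are scaled. HIF activity is set mainly by protein stability, which was not measured.

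Epas1 is also expressed by endothelium, and endothelial markers were higher in the ILC3 library. All 7 lay on that side, 5 by a large difference. Without Pecam1, which lymphocytes also express, the other 6 summed to 1382 normalized counts in ILC3 and 2.35 in Th17, where Cdh5, Kdr, Tek, Vwf and Emcn were at 0. Epas1 itself, as given above, stood at 4341 in Th17 and 11414 in ILC3. The part of endothelial RNA in the ILC3 level was not tested.

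Of the genes that hold HIF in check, the 3 among the 37 differed by less than 2-fold. Vhl, encoding the ubiquitin ligase subunit, stood at 590.3 normalized counts in Th17 against 437 in ILC3 (1.35-fold, 1.19 to 1.53). Egln1, encoding PHD2, the main HIF hydroxylase, stood at 2035 against 1180.4 (1.72-fold, 1.61 to 1.85). Egln3, encoding PHD3 and itself a HIF target, stood at 2169.5 against 1779.9 (1.22-fold, 1.14 to 1.30). Vhl and Egln3 turned to the ILC3 side (log2 -0.02 and -0.17) when the libraries were centred on constitutive gene families. Hif1an, encoding the asparaginyl hydroxylase FIH and named after its values were seen, stood at 2025 against 918 (2.20-fold higher in Th17, 2.04 to 2.38), which was log2 0.69 and under 2-fold by centring.

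HIF target genes went both ways, with 4 of 10 higher in Th17 and 2 in ILC3 by a large difference. Ndrg1, a stress-response gene induced by hypoxia, stood at 3279.6 normalized counts in Th17 against 478 in ILC3 (6.86-fold, 6.27 to 7.53). Ddit4, encoding REDD1, an inhibitor of mTORC1, stood at 2195 against 404.8 (5.42-fold, 4.90 to 6.01). Bnip3, encoding a receptor that targets mitochondria for autophagy, stood at 1261 against 270.4 (4.66-fold, 4.11 to 5.30). By centring, Ddit4 (log2 1.98) and Bnip3 (log2 1.76) fell under the large limit. Ndrg1, Ddit4 and Bnip3 all stayed on the Th17 side, unlike the relative of Bnip3. This gene, Bnip3l, with the same kind of role, stood at 3434 against 3499, and its interval of 0.936 to 1.03 for Th17 over ILC3 held equality. Ankrd37, an ankyrin repeat gene, had 102 reads (119.9 normalized counts) in Th17 and 0 in ILC3. Set against a floor of 3 reads in the ILC3 library it was 47.0-fold higher in Th17, which is not a lower limit for counting error. The lower limit of the exact interval was 37.5, or 5.36 with ILC3 reads in groups of 7. Higd1a, encoding a mitochondrial inner membrane protein, stood at 894 against 392 (2.28-fold, 2.03 to 2.56), and was under 2-fold by centring (log2 0.73).

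In the other direction, Hilpda, encoding an inhibitor of lipolysis on lipid droplets, stood at 1019.5 normalized counts in Th17 against 5506 in ILC3 (5.40-fold towards ILC3, 5.03 to 5.80). Per kilobase of exon it ranked 2 of 37 in ILC3 and 18 in Th17. Adm, encoding the vasoactive peptide adrenomedullin, had 2.35 in Th17, from 2 reads, and 259 in ILC3 (110.3-fold, 30.3 to 915). Adm is also expressed by endothelium and stroma. The 8 stromal markers summed to 448 normalized counts in Th17 and 8206 in ILC3, with 7 of 8 higher in ILC3 by a large difference and none at 0 in either library. The part of those cells in the Adm level was not tested. Ero1l, encoding an oxidase of protein folding, stood at 4236 against 5809 (1.37-fold towards ILC3, 1.32 to 1.43). P4ha1, encoding a collagen prolyl hydroxylase subunit, stood at 1569.8 against 1491, with an interval of 0.98 to 1.13 for Th17 over ILC3 that held equality, and it lay on the ILC3 side by total reads (log2 -0.03) and by centring (log2 -0.38).

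**Figure D4:**
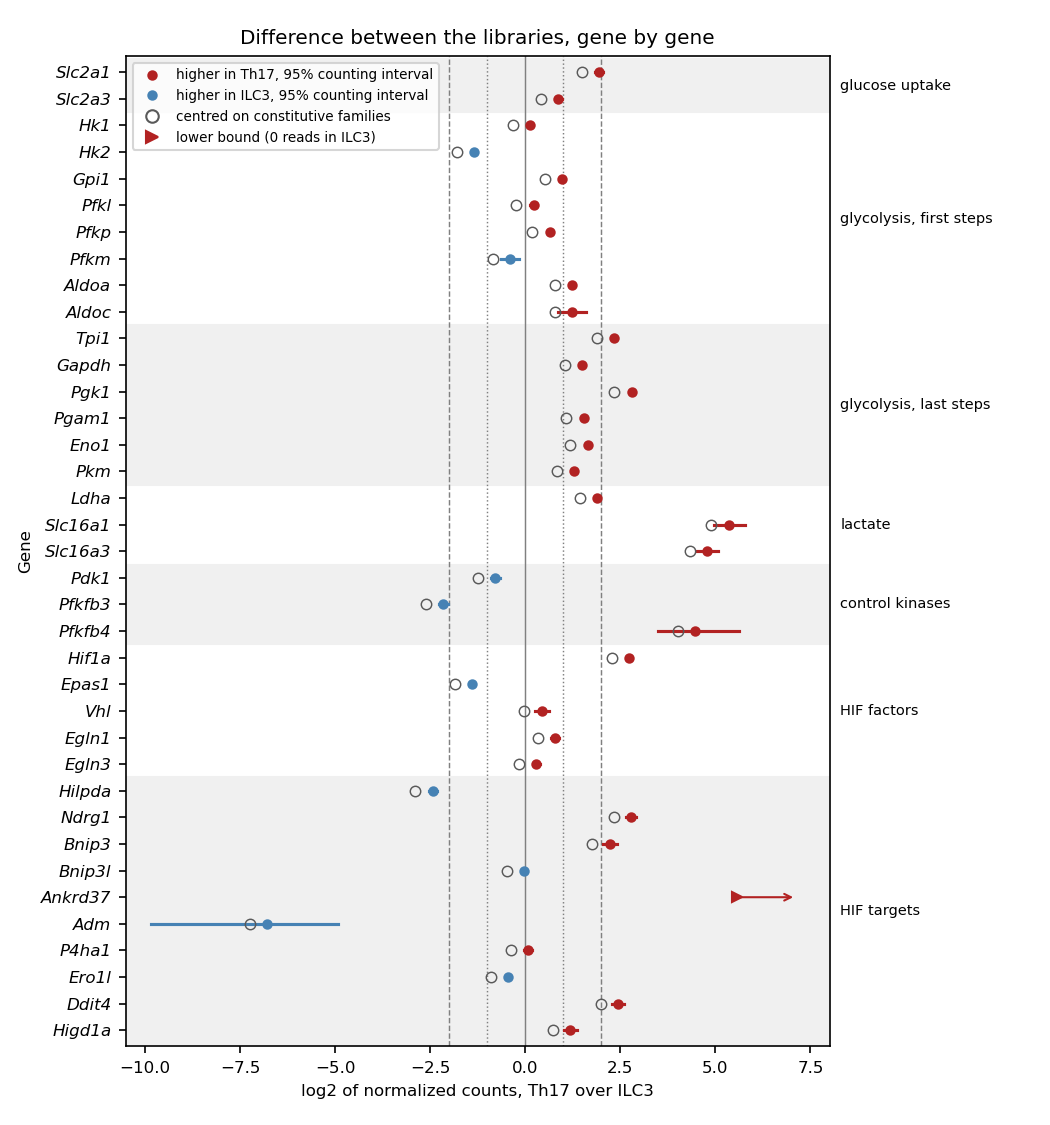
log2 of Th17 over ILC3 normalized counts (x axis) for each of the 37 genes with its exact 95% counting interval (bars), red where higher in Th17 and blue where higher in ILC3, dotted lines at 2-fold and dashed lines at 4-fold; open circles give the value centred on constitutive gene families, and the arrow of Ankrd37 starts at its lower bound. Most points of glycolysis lie right of 0 and the HIF targets lie on both sides.

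Pairs of related genes show the same contrasts free of library scaling. Besides Hif1a with Epas1 and Pfkfb3 with Pfkfb4, the ratio of Bnip3 to Bnip3l was 4.75-fold higher in Th17 (95% interval 4.15 to 5.43), that of Hk1 to Hk2 2.80-fold higher (2.66 to 2.94) and that of Slc2a1 to Slc2a3 2.09-fold higher (1.89 to 2.31). Egln1 to Egln3 and Slc16a1 to Slc16a3 differed by 1.41-fold and 1.49-fold. Pfkm to Pfkp was 2.04-fold higher in ILC3 (1.73 to 2.40). The ratio of Aldoa to Aldoc was 79.5 in Th17 and 79.1 in ILC3.

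**Figure D5:**
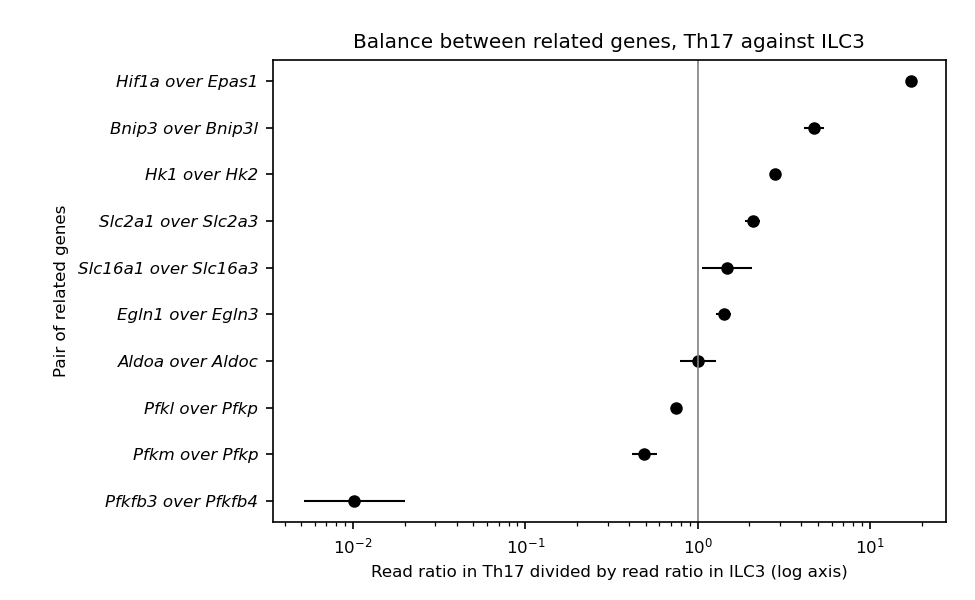
Ratio of reads of 2 related genes in Th17 divided by the same ratio in ILC3 (x axis, log scale) for 10 pairs, with 95% intervals from the read numbers; the line marks an equal ratio. Hif1a over Epas1 lies farthest to the right at 17.4 and Pfkfb3 over Pfkfb4 farthest to the left.

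Genes of cell division and of the immediate early response also differed between the libraries. All 20 proliferation genes were at least 2-fold higher in Th17, 15 of them by a large difference, and their sum was 45554 normalized counts in Th17 and 8346 in ILC3. Mki67 stood at 8979 against 551. Of 20 immediate early and stress genes, 16 were at least 2-fold towards ILC3, with a sum of 167434 in Th17 and 867370 in ILC3. Fosb stood at 18449.7 against 163620.0. The part of cell division, or of the immediate early response, in the values of the 37 genes was not tested.

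Other members of the pathways, from lists drawn up beside the 37 genes, are described by their counts. Of 23 further glycolysis genes with a row, 3 had a large difference, each of them towards ILC3, and the median log2 ratio over the 21 with a mean of at least 10 normalized counts was -0.61. Hk3, encoding a hexokinase of myeloid cells, stood at 16.5 normalized counts in Th17 against 791 in ILC3 (48.0-fold, 28.5 to 88.2). Slc2a6, a lysosomal hexose transporter gene, stood at 118 against 1328 (11.3-fold, 9.22 to 14.0). Ldhb, encoding the lactate dehydrogenase subunit that favours pyruvate, stood at 67.0 against 741 (11.1-fold, 8.45 to 14.7), the direction opposite to Ldha. Of the 13 macrophage and dendritic cell markers with a row, 9 were higher in ILC3 and 4 in Th17, none at 0. They summed to 1492 in Th17 and 2817 in ILC3, of which Lyz1 alone held 67.0 and 1191. Lyz1 is also expressed by Paneth cells of the intestinal epithelium, so these sums are not a measure of macrophages and dendritic cells alone. The part of macrophages and dendritic cells in the Hk3 level was not tested. Adpgk, an ADP-dependent glucokinase gene with the highest mean normalized count of the remaining genes, was 1.79-fold higher in ILC3.

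Of 23 further genes of the hypoxia response, 4 had a large difference towards Th17 and 2 towards ILC3, with a median log2 ratio of 0.21, which turned to -0.24 by centring. Hmox1, encoding heme oxygenase, stood at 209 normalized counts in Th17 against 12.8 in ILC3 (16.4-fold, 9.68 to 29.9). Stc2, a glycoprotein hormone gene, stood at 235 against 15.3 (15.4-fold, 9.47 to 26.5). Arnt2, a paralogue of the HIF partner gene Arnt, stood at 690.2 against 58.7 (11.8-fold, 9.15 to 15.3), whereas Arnt itself, named after its values were seen, stood at 2928 against 2524 and turned to the ILC3 side (log2 -0.24) by centring. Vegfa, the angiogenic growth factor gene and a classical HIF target, stood at 342 against 4676 (13.7-fold towards ILC3, 12.1 to 15.4). Stromal markers, as given above, summed to 448 in Th17 and 8206 in ILC3. All 11 epithelial markers were higher in ILC3 (sums 213 and 1299), as were all 8 B and plasma cell markers with a row (4005 and 14512). Most of the latter sums came from Igj (822 in Th17, 10299 in ILC3) and Sdc1 (2354 and 2754, under 2-fold). The part of such cells in the Vegfa level was not tested. Bhlhe40, a transcriptional repressor gene with the most normalized counts of the 23 further hypoxia genes, was 1.90-fold higher in ILC3.

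The counting could affect some values. Copies named after the parent gene exist for 8 of the 37 genes, among them Gapdh, Pgk1, Ldha, Aldoa, Pgam1 and Eno1, and reads that also match a copy may have been lost or moved. Exons of 5 genes overlap those of another gene with a row on the opposite strand in GENCODE vM21. Of these, Pfkm overlaps Senp1 (1980.2 normalized counts in Th17, 1301 in ILC3), Pfkp overlaps Pitrm1, and Ankrd37 overlaps Ufsp2 (285 and 279.8). The sources used here do not say whether counting used the strand.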

How the data were processed

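RNA sequencing of 1 Th17 and 1 ILC3 library was analysed, grouped by sample title. TopHat2 2.0.6, HTSeq 0.5.4p3, DESeq 1.12.0 and build mm8 are named, per the submitters' processing notes; order and settings are not known here. The deposited signal columns hold the authors' counts divided by a size factor (normalized counts), and 2 further columns the authors deposited are each gene's p-value and its adjusted form, quoted only as such. Of 17048 rows, 24 whose names had become dates were left out, and 2 repeat columns were not used. Dividing by the lowest value above 0 gave whole reads within 0.001 in 100% of values; a count model needs replicates and was not fitted.

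The value per gene was log2((Th17 + 1)/(ILC3 + 1)); folds in the text are plain ratios. Ratio intervals were conditional binomial (Clopper-Pearson), and pair intervals were normal approximations on log reads. Intervals and floors cover counting error only, because PCR copies cannot be told from independent molecules without identifiers. All 37 members were named, and from other lists the up to 4 largest large differences and the other gene with the highest mean normalized count, while marker genes were named where a result touches them. Members and lists were chosen with earlier results of these data known. Exon lengths are unions from GENCODE vM21 (GRCm38), another build than the authors', so levels per kilobase are approximate. Promoters came from RefSeq (GRCm38.p6), with Ero1l matched through its synonym. The calculation was tested on simulated reads. Alternatives covered 4 scalings, pseudocounts of 0.1 and 10 and other minimums. Software was Python 3.11.15 with scipy 1.17.1, numpy 2.4.6, matplotlib 3.10.9 and pandas 2.3.3.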

Additional observations from a re-analysis of the deposited data

How the results depend on the processing

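No paired analysis was possible because each group held 1 library, and for the same reason no replicate could be left out. The counts of members with a large or a 2-fold difference stayed within 1.5 times of 10, 3, 19 and 5 under every scaling, pseudocount and minimum tried. Centring on 155 genes of constitutive families, themselves 1.37-fold higher in Th17, moved the median of all genes by -0.45 (log2) and scaling to total reads by -0.11. Centring left 7 members with a large difference higher in Th17 (Tpi1, Bnip3 and Ddit4 fell short) and 3 higher in ILC3. The median of the glycolysis genes became 1.16 by total reads, 1.20 by upper quartile and 0.81 by centring, and that of the hypoxia genes turned to -0.021 by centring. P4ha1, Hk1, Pfkl, Vhl and Egln3, all under 2-fold, turned to the ILC3 side by centring, and P4ha1 also by total reads. Over all genes, large differences higher in Th17 and in ILC3 numbered 668 and 875, 469 and 1185 by centring, 1923 and 2274 with no minimum, 343 and 408 at a minimum of 500, and 219 and 280 at 1000, a minimum added after seeing the data, because the minimum sets how many genes qualify. Of the 37 intervals 2 held equality, and 3 with ILC3 reads in groups of 7. Depth limits Adm (2 reads in Th17), Pfkfb4 (9 in ILC3) and Ankrd37 (0 in ILC3).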

Other observations

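Pathways next to glycolysis had medians near 0 on the authors' scaling; by centring they were -0.62 for the tricarboxylic acid cycle, -0.47 for the pentose phosphate pathway and -0.51 for pyruvate use. None of the 16 genes of the tricarboxylic acid cycle had a large difference, and 15 differed by less than 2-fold, with a median log2(Th17/ILC3) of -0.16. Ogdh, encoding the 2-oxoglutarate dehydrogenase subunit and the one with the most normalized counts, stood at 5099 normalized counts in Th17 against 5869 in ILC3. Of 7 genes of the pentose phosphate pathway, 1 reached 2-fold, Tkt, encoding transketolase, at 4934 and 2257 (2.19-fold, 2.08 to 2.30; log2 0.67 by centring), and the median was -0.01. Of 12 genes for pyruvate use in mitochondria, 1 had a large difference, Pdk2, a kinase gene that inhibits pyruvate dehydrogenase like Pdk1, with 40.0 in Th17 and 216 in ILC3 (5.40-fold, 3.77 to 7.97). Pdk3, of the same family and named after its values were seen, was the 1 gene of the list at least 2-fold higher in Th17, with 646 against 179 (3.60-fold, 3.06 to 4.24). Pdha1, the dehydrogenase subunit gene, stood at 1946 against 2079.

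Of 17 genes for regulators of glycolysis, 1 had a large difference. Arrdc4, encoding an arrestin that restrains glucose uptake, stood at 67.0 normalized counts in Th17 against 7763 in ILC3 (115.8-fold, 89.3 to 153). Txnip, its paralogue with the same role and named after its values were seen, stood at 3792 against 1947, the other direction. Mlxip, encoding the glucose-sensing factor MondoA, was 1.52-fold higher in ILC3 (1.46 to 1.58). Myc, named after its values were seen, was the 1 gene of the list at least 2-fold higher in Th17. It stood at 2246 against 866 (2.59-fold, 2.40 to 2.80), which was log2 0.92 and under 2-fold by centring.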
